A study of Mus musculus with 8 samples.

Results

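Rab genes encode small GTPases, the switch proteins that mark membranes for transport inside the cell. The members described here are all 59 rows, of 24454 gene rows in the deposited count table, whose symbol is Rab followed by a number and at most 1 letter. They were read by the transport step each protein is known for. The mouse cells came from yolk sac at E11.5 (embryonic day), the extraembryonic tissue that holds the first vessels and red cells. All cells shared the strain C57BL/6 and the allele miR144-451+/GFP, in which 1 copy of a microRNA locus active in red cells drives green fluorescent protein, and they were neither cultured nor treated. Sorting used that GFP and an antibody to VE-Cadherin, the endothelial junction protein made from Cdh5. The double positive group (VE-Cadherin positive, GFP positive) had 2 pools of 24 cells, numbered 7 and 8. The erythroid group (VE-Cadherin negative, GFP positive) had 3 pools of 25 cells, numbered 4 to 6. The endothelial group (VE-Cadherin positive, GFP negative) had 3 pools of 25 cells, numbered 1 to 3. The labels do not say whether the pools came from separate embryos, so p-values measure only the spread between pools.

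A Rab protein is on when it holds GTP and off when it holds GDP. Exchange factors switch it on at 1 membrane, GTPase activating proteins switch it off, and lipid tails added by a prenyltransferase anchor it until a GDP dissociation inhibitor lifts it away. Bound to GTP, each Rab recruits its own effectors (tethers, motors and coat adaptors), so the set of Rab proteins in a cell lays out its routes between endoplasmic reticulum (ER), Golgi, endosomes, lysosomes and surface. Red cell precursors are known for heavy traffic of the transferrin receptor through recycling endosomes and for clearing their organelles as they mature, and endothelial cells for regulated secretion and for recycling of junction proteins.

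Each library came from a pool of cells copied with Smart-seq2 and 14 cycles of PCR, and held 3723128 to 7618444 gene counts. Cdh5 stood at 45.8 and 56.0 normalised read counts (CPM, scaled to library size) in double positive libraries, 0 in all 3 erythroid libraries and 233, 172 and 219.8 CPM in endothelial libraries. All 11 erythroid markers were detected in every double positive and erythroid library, against 4 or 5 of 11 in endothelial libraries. The double positive libraries held all 10 endothelial markers, at a summed 470 and 642 CPM, against 2856 to 4362 CPM in endothelial libraries. They also held all 15 visceral endoderm markers (genes of the yolk sac epithelium) at a summed 101500 and 98970 CPM, against 10.1 to 22.5 CPM in erythroid and 108 to 221 CPM in endothelial libraries. Macrophage markers summed to 106 and 188 CPM in double positive libraries and to 1569 to 4011 CPM in endothelial libraries, and all 14 were at 0 in every erythroid library. In endothelial replicate 2 the macrophage sum of 4011 CPM exceeded the sum of endothelial markers, 2856 CPM. In replicates 1 and 3 it was below that sum, at 1569 against 4362 CPM and 1734 against 4036 CPM. In pooled cells, fewer cells of a type and less RNA per cell cannot be told apart.

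The promoters of 4 members are shown as examples. Their transcripts were at 0 in at least 1 whole population and counted in every library of another. The same held for Rab3b, Rab4a, Rab6b, Rab7b, Rab27a, Rab34 and Rab39, whose promoters are not shown. Rab17 and Rab20 were counted in double positive libraries and were at 0 in all others, and Rab31 and Rab32 were at 0 in every erythroid library. Each window runs from 250 bases before to 50 after the transcription start that RefSeq gives on GRCm38.p6, all on the minus strand and written 5′ to 3′, with CG pairs (CpG sites, where DNA can be methylated) in capitals. The windows are chr1:90967618-90967917 for Rab17, chr8:11478591-11478890 for Rab20, chr17:65772703-65773002 for Rab31 and chr10:10558158-10558457 for Rab32.
Rab17: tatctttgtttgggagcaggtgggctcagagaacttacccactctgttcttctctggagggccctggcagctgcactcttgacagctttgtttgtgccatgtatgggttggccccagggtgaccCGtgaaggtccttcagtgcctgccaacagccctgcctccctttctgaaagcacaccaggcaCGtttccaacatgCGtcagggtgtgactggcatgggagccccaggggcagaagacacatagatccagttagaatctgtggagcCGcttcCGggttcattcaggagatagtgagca
Rab20: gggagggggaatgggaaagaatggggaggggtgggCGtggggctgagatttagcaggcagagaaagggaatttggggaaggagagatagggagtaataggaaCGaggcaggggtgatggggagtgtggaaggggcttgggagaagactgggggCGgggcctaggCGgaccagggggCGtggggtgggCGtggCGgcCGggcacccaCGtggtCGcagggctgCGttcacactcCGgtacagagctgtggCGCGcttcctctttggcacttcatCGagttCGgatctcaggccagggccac
Rab31: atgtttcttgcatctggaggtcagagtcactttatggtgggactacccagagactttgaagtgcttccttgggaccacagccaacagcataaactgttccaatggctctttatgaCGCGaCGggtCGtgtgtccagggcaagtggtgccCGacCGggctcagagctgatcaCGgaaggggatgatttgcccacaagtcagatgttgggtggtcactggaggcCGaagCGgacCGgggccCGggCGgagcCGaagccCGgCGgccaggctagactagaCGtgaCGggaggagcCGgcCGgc
Rab32: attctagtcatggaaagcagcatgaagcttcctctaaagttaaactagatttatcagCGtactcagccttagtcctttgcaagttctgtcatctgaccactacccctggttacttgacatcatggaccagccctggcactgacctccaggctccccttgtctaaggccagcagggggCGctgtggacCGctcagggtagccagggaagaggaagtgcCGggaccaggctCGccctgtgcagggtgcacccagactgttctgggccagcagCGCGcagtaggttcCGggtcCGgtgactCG
The Rab17 window held 5 CG pairs, the Rab20 window 16, the Rab31 window 19 and the Rab32 window 10. The gene model given below for Rab17 starts further upstream, at position 90969661, outside the window shown. Which start these cells used was not tested. Across the 60 RefSeq windows of 48 Rab genes the median was 19.5 pairs, against 7 pairs over all 32851 windows of 27025 genes. The median GC content was 61.2% for Rab windows and 52.7% for all windows. The letters of a GATA motif (AGATAA or TGATAA, either strand) were in 10% of Rab windows, Rab32 among them, and in 18.6% of all windows. Those of an ETS motif (CCGGAAG, either strand) were in 8.33% of Rab windows, Rab17 among them, and in 8.86% of all windows. A TATAAA stretch was in 6.67% of Rab windows and 13.6% of all. These matches describe letters in a fixed window, and no binding was measured.

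Of the 59 members, 46 passed the filter on low counts and were tested, and 26 had counts in every library. Counts were found for 50 members in double positive, 35 in erythroid and 47 in endothelial libraries. Per library, 46 and 46 members had counts in double positive, 30 to 32 in erythroid and 42 to 45 in endothelial libraries. Over all genes, 14059 and 13980 had counts in double positive, 8673 to 8746 in erythroid and 11744 to 11884 in endothelial libraries. The populations thus ranked alike for members and for all genes. The whole family held 2807 and 2593 CPM in double positive libraries, 1247, 1456 and 1393 CPM in erythroid libraries and 2489, 2307 and 2533 CPM in endothelial libraries. Erythroid libraries were thus the lowest, with no overlap, and double positive libraries lay just above endothelial ones. As a share of raw counts the family made up 0.317% and 0.264% of double positive libraries, 0.0703% to 0.0833% of erythroid libraries and 0.381% to 0.425% of endothelial libraries. Raw shares also depend on the other genes of a library. The globin gene Hbb-y alone had 530700 to 561600 CPM in erythroid and 9.9 to 15.8 CPM in endothelial libraries. The scaling factors behind CPM were 1.13 and 1.02 in double positive, 0.564 to 0.580 in erythroid and 1.65 to 1.71 in endothelial libraries.

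The first comparison sets the Rab genes of the erythroid pools against those of the endothelial pools, which also held macrophage transcripts. By edgeR's quasi-likelihood test with Benjamini-Hochberg adjustment over 12136 genes, 14 of the 46 tested members were lower in the erythroid than in the endothelial libraries (30.4%), against 26.6% of all genes tested. Of the 46, 0 were higher, against 14.4% of all genes. At an unadjusted p under 0.05 the count of higher members was also 0, against 2095 of the 12136 genes. The count was 0 as well with DESeq2 (13.4% of all genes) and limma-voom (15.5%). It became 1 without endothelial replicate 3 (Rab18), erythroid replicate 4 (Rab11b) or erythroid replicate 6 (Rab28), where 12.7% of all genes were higher in each case. The median log2 difference was -0.77 over the tested members and -0.36 over all genes tested. Scaling by library size alone, which moves the median of all genes by -1.54 on the log2 scale, gave 36 lower members, against 59.9% of all genes, and all 14 were among them.

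The other comparisons ask where cells carrying both sorting marks stand. Against endothelial libraries, double positive libraries were higher for 6 members (13.0%), against 14.6% of all genes, and lower for 5 (10.9%), against 6.92%. Against erythroid libraries they were higher for 18 members (39.1%), against 31.5% of all genes, and lower for 3 (6.52%), against 10.6%. The median log2 difference was -0.16 over members and 0.06 over all genes against endothelial libraries, and 1.21 over members and 0.71 over all genes against erythroid libraries. Both comparisons share the same 2 double positive libraries. DESeq2 called 9 members lower against endothelial libraries, and 11.7% of all genes. Without double positive replicate 7, 2 members were higher (6.52% of all genes) and 1 lower (1.7%) against endothelial libraries, and 10 were higher (18% of all genes) and 1 lower (4.74%) against erythroid libraries. Without replicate 8, 1 member was higher (5.41% of all genes) and 2 lower (2.18%) against endothelial libraries, and 12 were higher (18.6%) and 1 lower (5.24%) against erythroid libraries. Against endothelial libraries, leaving out endothelial replicate 1 left 3 lower members (4.23% of all genes), replicate 2 left 3 (5.62%) and replicate 3 left 2 (4.63%).

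**Figure D1:**
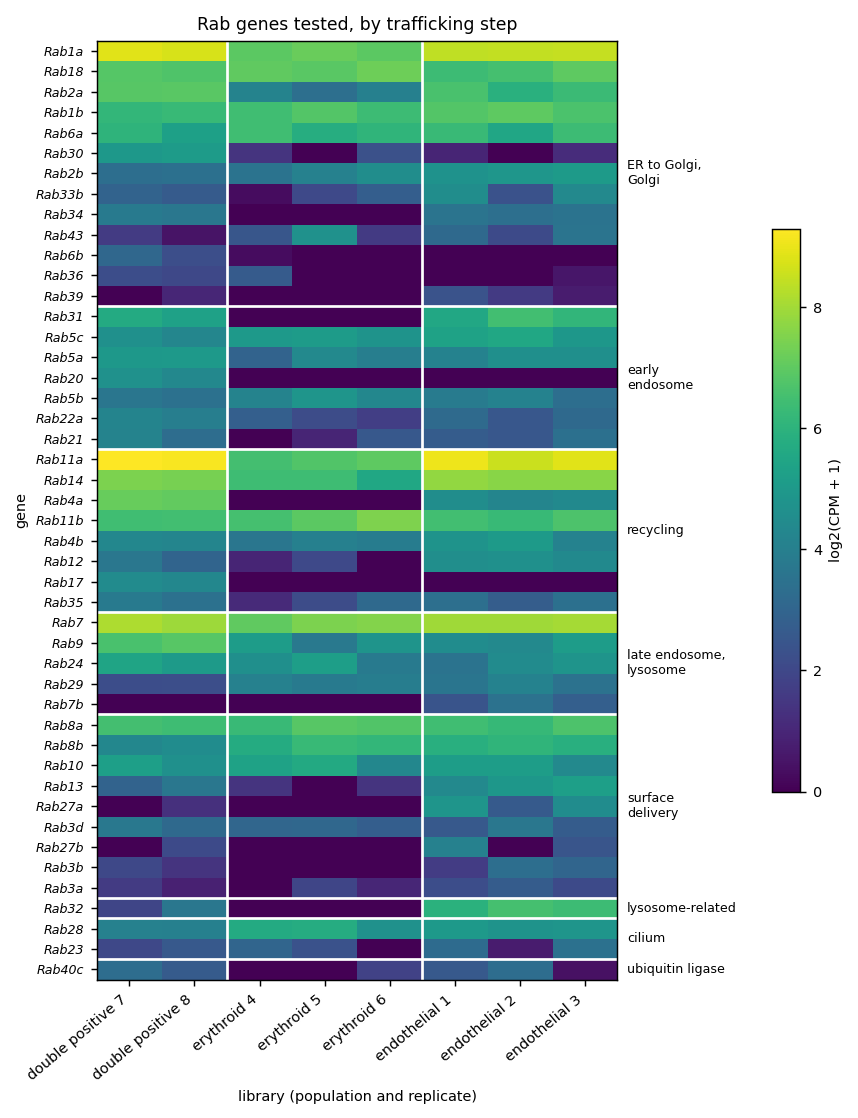
Normalised read counts of the 46 tested Rab genes (rows, grouped by transport step) in the 8 libraries (columns, population and replicate number), with colour showing log2(CPM + 1). Rab31, Rab32, Rab4a and Rab34 are dark in all 3 erythroid columns, and Rab17 and Rab20 are lit in the 2 double positive columns alone.

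Between the ER and the Golgi and within the Golgi, 13 of 16 members were tested. Erythroid libraries were lower than endothelial ones for 3 (23.1%, against 26.6% of all genes) and higher for 0. Higher values in double positive than in erythroid libraries passed for 5 (38.5%, against 31.5%), and 0 were lower. Rab1a, which acts in the first step from ER to Golgi (chromosome 11, 20201432 to 20226856, GRCm38), had 471 and 421 CPM in double positive libraries, 122, 145 and 123 CPM in erythroid libraries and 342, 346 and 359 CPM in endothelial libraries. The 3 populations did not overlap, with erythroid libraries lowest. The log2 difference was -1.42 ± 0.13 (SE) for erythroid against endothelial libraries (adjusted p = 4.74e-05) and 1.78 ± 0.14 for double positive against erythroid libraries (adjusted p = 3.155e-05). Its near copy Rab1b had 70.1 and 76.5 CPM in double positive libraries, 85.9, 112 and 81.4 CPM in erythroid libraries and 110.2, 126 and 99.4 CPM in endothelial libraries. Rab1b passed in no comparison of the main fit, and its erythroid and endothelial libraries overlapped. It was called lower in the double positive than in the endothelial libraries in some alternatives. The log2 difference was -0.74 with DESeq2, -0.74 with RLE factors and -1.25 with library size alone.

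Rab2a, which works in retrieval from Golgi to ER, had 116 and 118 CPM in double positive libraries, 16.99, 9.51 and 15.6 CPM in erythroid libraries and 98.7, 58.1 and 79.2 CPM in endothelial libraries. Erythroid libraries were far below the rest. It was lower in the erythroid than in the endothelial libraries by a log2 difference of -2.48 ± 0.30 (adjusted p = 0.000231) and higher in the double positive than in the erythroid libraries by 3.05 ± 0.32 (adjusted p = 0.0001347). Its near copy Rab2b had 9.35 and 9.77 CPM in double positive libraries, 10.7, 16.2 and 22.8 CPM in erythroid libraries and 25.5, 28.3 and 32.4 CPM in endothelial libraries. Double positive libraries were the lowest, and the log2 difference of Rab2b from endothelial libraries was -1.59 ± 0.45 (adjusted p = 0.0368). That call was lost without any 1 endothelial or double positive library and with no filter on low counts, where the log2 difference stayed between -1.68 and -1.50. Exons of Rab2b overlap those of Tox4 on the other strand, and the strand setting of the counting is not given in the sources used here.

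Rab6a, which serves traffic from the Golgi back to the ER, stood at 64.3 and 37.7 CPM in double positive libraries, 85.2, 54.8 and 67.4 CPM in erythroid libraries and 78.01, 43.9 and 81.3 CPM in endothelial libraries. The ranges overlapped and no comparison passed. Rab6b, the form best known from brain, had 7.64 and 3.66 CPM in double positive libraries, 0.233, 0 and 0 CPM in erythroid libraries and 0 in all 3 endothelial libraries. Only 1 of the other 6 libraries, an erythroid one, held a single read. Rab6b was at least 37.9-fold higher in the double positive than in the endothelial libraries, taking 3 counts over the endothelial group as the floor (adjusted p = 0.0192). Against erythroid libraries the count ratio was 60.1 with a 95% counting interval of 10.4 to 2415 (adjusted p = 0.0273). DESeq2 and the fits without erythroid replicate 5 or 6 did not call the difference from erythroid libraries, and neither call stood on 1 double positive library.

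Rab30, a Golgi Rab (chromosome 7, 92741603 to 92844535), had 29.8 and 33.4 CPM in double positive libraries, 1.63, 0 and 3.91 CPM in erythroid libraries and 0.924, 0 and 1.29 CPM in endothelial libraries. Both double positive libraries lay far above the other 6. The log2 difference was 5.36 ± 1.34 against endothelial libraries (adjusted p = 0.0229) and 4.09 ± 1.29 against erythroid libraries (adjusted p = 0.0316). The first call was lost without endothelial replicate 1 or 3, and the second without erythroid replicate 4, and neither stood on 1 double positive library. Rab34, which positions lysosomes from the Golgi, had 12.98 and 12.01 CPM in double positive libraries, 0 in all 3 erythroid libraries and 10.96, 9.60 and 10.7 CPM in endothelial libraries. The erythroid group was at least 36.6-fold lower than the endothelial group (adjusted p = 0.0007085), and the double positive group at least 43.9-fold higher than the erythroid group (adjusted p = 0.0008405). Rab18, found on ER and lipid droplets, was close to level, with 115 and 106 CPM in double positive libraries, 131, 121 and 151 CPM in erythroid libraries and 82.5, 93.7 and 126 CPM in endothelial libraries. Of the other members of this step, Rab33b, Rab36, Rab39 and Rab43 were tested and passed in no comparison, each below 25 CPM in every library.

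At the early endosome all 7 members were tested. Rab5, the master switch of early endosome fusion, is made from 3 genes, and none of them passed in any comparison. Rab5a had 30.2 and 31.6 CPM in double positive libraries, 6.75, 19.96 and 14.7 CPM in erythroid libraries and 16.4, 23.6 and 23.9 CPM in endothelial libraries. Rab5b had 11.45 and 9.97 CPM in double positive libraries, 16.99, 27.6 and 18.6 CPM in erythroid libraries and 13.7, 16.4 and 9.36 CPM in endothelial libraries. Rab5c had 24.6 and 18.3 CPM in double positive libraries, 30.7, 33.6 and 26.4 CPM in erythroid libraries and 39.5, 44.9 and 29.2 CPM in endothelial libraries. Rab5a was thus highest and Rab5b and Rab5c lowest or near lowest in double positive libraries, within differences that the test did not separate. DESeq2 called Rab5c lower in the double positive than in the endothelial libraries, with a log2 difference of -0.95, and limma-voom called Rab5a higher in the double positive than in the erythroid libraries, at 1.37.

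Rab31, which links the Golgi to endosomes (chromosome 17, 65651729 to 65772752), had 50.02 and 39.3 CPM in double positive libraries, 0 in all 3 erythroid libraries and 46.99, 88.4 and 67.6 CPM in endothelial libraries. Double positive and endothelial libraries overlapped, and not 1 read was counted in the erythroid group. Rab31 was at least 232-fold lower in the erythroid than in the endothelial libraries (adjusted p = 3.973e-05) and at least 157-fold higher in the double positive than in the erythroid libraries (adjusted p = 8.443e-05). Its relative Rab22a had 17.2 and 14.9 CPM in double positive libraries, 6.05, 3.49 and 2.28 CPM in erythroid libraries and 8.32, 4.72 and 8.07 CPM in endothelial libraries. Double positive libraries were highest, with a log2 difference of 2.01 ± 0.65 from erythroid libraries (adjusted p = 0.0350), a call lost without erythroid replicate 5 or 6, without either double positive library and with no filter. Rab21, which carries integrins, passed in no comparison. Its values were 16.8 and 8.96 CPM in double positive libraries, 0, 0.951 and 4.89 CPM in erythroid libraries and 5.54, 4.72 and 9.84 CPM in endothelial libraries.

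Rab20, known from endosomes and phagosomes (chromosome 8, 11453518 to 11478710), had 24.8 and 19.3 CPM in double positive libraries and was at 0 in all 3 erythroid and all 3 endothelial libraries. This is at least 77.7-fold higher than in erythroid libraries (adjusted p = 0.00512) and at least 147-fold higher than in endothelial libraries (adjusted p = 0.00831). Exons of Rab20 overlap those of E230013L22Rik on the other strand for 356 bases. That gene held 7 and 10 counts in double positive libraries and 0 in the others, beside 130 and 95 counts of Rab20. With double positive replicate 7 or 8 alone, the difference from endothelial libraries no longer passed, and with replicate 8 alone neither did that from erythroid libraries.

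At the recycling endosome 8 of 10 members were tested. Erythroid libraries were lower than endothelial ones for 4 of them (Rab4a, Rab11a, Rab12 and Rab14), against 26.6% of all genes. In 5 of the 8, the double positive libraries were higher than the erythroid ones (62.5%), against 31.5% of all genes. Rab4a, which runs the fast route from early endosomes back to the surface (chromosome 8, 123805985 to 123835287), had 138 and 132 CPM in double positive libraries, 0 in all 3 erythroid libraries and 22.4, 17.6 and 20.2 CPM in endothelial libraries. The 3 populations were fully separate. Erythroid libraries were at least 70.97-fold lower than endothelial ones (adjusted p = 3.145e-05). Double positive libraries exceeded endothelial ones by a log2 difference of 2.75 ± 0.28 (adjusted p = 0.0009312) and erythroid ones at least 474-fold (adjusted p = 1.401e-05). Both calls stood in all alternatives, including the fits with either double positive library left out. Its near copy Rab4b stayed present in every population, at 18.7 and 17.9 CPM in double positive libraries, 11.6, 15.5 and 14.00 CPM in erythroid libraries and 26.1, 32.6 and 16.5 CPM in endothelial libraries. Rab4b passed in no comparison of the main fit, and a same-strand gene model, Gm21983, shares 1280 of its exonic bases. DESeq2 called Rab4b lower in the erythroid than in the endothelial libraries, with a log2 difference of -1.05.

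Rab11a, which controls the slow route through the perinuclear recycling compartment (chromosome 9, 64715299 to 64737758), was the most abundant member in double positive and endothelial libraries. It had 627 and 592 CPM in double positive libraries, 91.3, 109.6 and 127 CPM in erythroid libraries and 534, 371 and 474 CPM in endothelial libraries. Erythroid libraries were far below the other 5. The log2 difference was -2.07 ± 0.18 for erythroid against endothelial libraries (adjusted p = 4.09e-05) and 2.48 ± 0.20 for double positive against erythroid libraries (adjusted p = 3.308e-05). The near copy Rab11b had 85.3 and 88.5 CPM in double positive libraries, 92.6, 123 and 182 CPM in erythroid libraries and 88.04, 76.2 and 103 CPM in endothelial libraries. Erythroid libraries were the highest on average and overlapped endothelial ones, and Rab11b passed in no comparison. Without erythroid replicate 4 it was called higher in the erythroid than in the endothelial libraries, with a log2 difference of 0.72, and with library size alone it was called lower, at -0.97.

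Rab14, which moves cargo between Golgi and endosomes, had 173 and 166 CPM in double positive libraries, 84.96, 84.3 and 45.3 CPM in erythroid libraries and 219.5, 199 and 199.6 CPM in endothelial libraries. Erythroid libraries were lowest, by a log2 difference of -1.52 ± 0.24 from endothelial libraries (adjusted p = 0.0009644) and with double positive libraries higher than erythroid ones by 1.25 ± 0.26 (adjusted p = 0.00489). Rab12, which sends the transferrin receptor from recycling endosomes to lysosomes, had 11.8 and 6.92 CPM in double positive libraries, 0.931, 3.17 and 0 CPM in erythroid libraries and 23.1, 24.4 and 20.2 CPM in endothelial libraries. Erythroid libraries were lowest and endothelial ones highest with no overlap, and there was a log2 difference of -4.03 ± 0.93 for erythroid against endothelial libraries (adjusted p = 0.00763). The call of Rab12 for double positive against erythroid libraries (log2 difference 2.77 ± 0.95, adjusted p = 0.0441) was lost in 7 alternatives, among them each fit that left out 1 endothelial library.

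Rab17, an epithelial Rab of apical recycling and transcytosis (chromosome 1, 90958133 to 90969661), had 21.4 and 18.5 CPM in double positive libraries and was at 0 in all 3 erythroid and all 3 endothelial libraries. Its level was at least 70.1-fold higher than in erythroid libraries (adjusted p = 0.00589) and at least 133-fold higher than in endothelial libraries (adjusted p = 0.00933). As with Rab20, neither double positive library alone kept the call against endothelial libraries, and replicate 8 alone did not keep that against erythroid libraries. Rab25, the other epithelial Rab of this step, had 2 counts in 1 double positive library and 0 elsewhere. Rab35, which recycles cargo from the surface, had 12.8 and 10.2 CPM in double positive libraries, 1.16, 3.49 and 8.14 CPM in erythroid libraries and 9.64, 5.70 and 9.84 CPM in endothelial libraries, and did not pass.

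Toward late endosomes and lysosomes 5 of 7 members were tested. Rab7, the switch of transport into lysosomes, was the most abundant member in erythroid libraries. It had 285 and 243 CPM in double positive libraries, 130.1, 173 and 189 CPM in erythroid libraries and 247, 248 and 259.5 CPM in endothelial libraries. Erythroid libraries were lowest without overlap, but the step was small, a log2 difference of -0.62 ± 0.16 from endothelial libraries (adjusted p = 0.0147), and of 0.69 ± 0.18 for double positive against erythroid libraries (adjusted p = 0.0153), which was lost without double positive replicate 7. The medians over all genes in these comparisons were -0.36 and 0.71. Rab7b, of the route from late endosomes to the Golgi, was at 0 in all double positive and erythroid libraries and had 4.36, 10.4 and 5.97 CPM in endothelial libraries. It was at least 23.6-fold lower in erythroid (adjusted p = 0.00863) and at least 22.8-fold lower in double positive libraries (adjusted p = 0.0277) than in endothelial libraries. The second call was lost without endothelial replicate 3 or either double positive library.

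Rab9, which returns mannose 6-phosphate receptors from late endosomes to the Golgi (chromosome X, 166457253 to 166479867), had 97.9 and 116 CPM in double positive libraries, 33.98, 12.4 and 27.4 CPM in erythroid libraries and 21.8, 19.5 and 34.1 CPM in endothelial libraries. Double positive libraries were the highest by a wide gap, and the other populations overlapped. The log2 difference was 2.09 ± 0.42 against endothelial libraries (adjusted p = 0.00895) and 2.12 ± 0.42 against erythroid libraries (adjusted p = 0.00419). Without double positive replicate 8 the first value was 1.95 and no longer passed. Rab29, which sits on the Golgi and on stressed lysosomes, was low in the same libraries, with 3.63 and 3.66 CPM in double positive libraries, 15.8, 12.99 and 14.3 CPM in erythroid libraries and 11.2, 16.3 and 10.3 CPM in endothelial libraries. The log2 difference was -1.78 ± 0.55 against endothelial libraries (adjusted p = 0.0478) and -1.97 ± 0.55 against erythroid libraries (adjusted p = 0.0199). The first call was lost without any 1 endothelial or double positive library (log2 differences between -1.92 and -1.57) and with no filter. The second was lost without either double positive library and with library size alone. Rab24, linked to autophagy, passed in no comparison, at 41.6 and 32.8 CPM in double positive libraries, 23.98, 36.1 and 12.7 CPM in erythroid libraries and 10.6, 21.6 and 27.1 CPM in endothelial libraries. Its exons overlap those of Prelid1 on the other strand.

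Among the 13 members of exocytosis and delivery to the surface, 9 were tested. Rab8a and Rab8b carry cargo from the Golgi to the plasma membrane and the cilium. Rab8a was level, at 90.9 and 83.04 CPM in double positive libraries, 77.98, 118 and 108 CPM in erythroid libraries and 85.4, 73.2 and 102 CPM in endothelial libraries. Rab8b (chromosome 9, 66843664 to 66919687) had 18.7 and 21.98 CPM in double positive libraries, 51.2, 76.04 and 70.02 CPM in erythroid libraries and 57.3, 65.9 and 57.6 CPM in endothelial libraries. Both double positive libraries were below the other 6, and the other populations overlapped. The log2 difference was -1.57 ± 0.27 against endothelial libraries (adjusted p = 0.00450) and -1.69 ± 0.27 against erythroid libraries (adjusted p = 0.00139). Without double positive replicate 7 the first value was -1.45 and did not pass. Rab10, of surface delivery of glucose transporters, passed in no comparison, at 36.7 and 24.6 CPM in double positive libraries, 40.04, 48.8 and 18.6 CPM in erythroid libraries and 35.1, 34.7 and 20.01 CPM in endothelial libraries.

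Rab13, which delivers proteins to cell junctions, had 6.68 and 11.8 CPM in double positive libraries, 1.63, 0 and 1.63 CPM in erythroid libraries and 19.5, 29.6 and 37.4 CPM in endothelial libraries. The populations did not overlap. Erythroid libraries were lower than endothelial ones by a log2 difference of -4.67 ± 0.85 (adjusted p = 0.00220), and double positive libraries higher than erythroid ones by 3.03 ± 0.86 (adjusted p = 0.0210). The second call was lost without double positive replicate 8 and when only the populations compared were fitted. Rab27a, which docks secretory granules and lysosome-related organelles at the surface, had 0 and 1.43 CPM in double positive libraries, 0 in all 3 erythroid libraries and 27.98, 5.21 and 21.8 CPM in endothelial libraries. The endothelial libraries spread widely. Erythroid libraries lay at least 66.7-fold lower than endothelial ones (adjusted p = 0.00752), while the difference of double positive from endothelial libraries missed the threshold (adjusted p = 0.0765) and passed with DESeq2 and limma-voom. Rab27b, its near copy known from platelet granules, had 0 and 3.26 CPM in double positive libraries, 0 in all 3 erythroid libraries and 15.97, 0 and 4.52 CPM in endothelial libraries. It rested on a few libraries and did not pass.

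The Rab3 genes, known from regulated secretion, were scarce. Rab3b had 3.06 and 1.63 CPM in double positive libraries, 0 in all 3 erythroid libraries and 2.11, 9.28 and 7.10 CPM in endothelial libraries, at least 20.6-fold lower in the erythroid than in the endothelial libraries (adjusted p = 0.00659). It was at least 8.29-fold higher in the double positive than in the erythroid libraries (adjusted p = 0.0177), a call lost without either double positive library. Rab3d stayed between 5.02 and 12.03 CPM in all 8 libraries, and Rab3a between 0 and 5.53 CPM. Rab37, known from mast cell granules, had 26 counts in double positive replicate 7 and 0 in the other 7 libraries.

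Rab32, which builds lysosome-related organelles such as melanosomes (chromosome 10, 10545002 to 10558265), had 2.86 and 12.01 CPM in double positive libraries, 0 in all 3 erythroid libraries and 60.3, 92.6 and 82.5 CPM in endothelial libraries. The populations were fully separate, and the double positive pair differed widely from each other. Rab32 was at least 271-fold lower in the erythroid than in the endothelial libraries (adjusted p = 0.0002383), and lower in the double positive than in the endothelial libraries by a log2 difference of -3.40 ± 0.66 (adjusted p = 0.0136). The double positive pair lay at least 25.6-fold above erythroid libraries (adjusted p = 0.00286). Its partner Rab38 had 4 counts in 1 double positive library and 21 in 1 endothelial library. Rab7b, Rab27a, Rab31 and Rab32 were lower in the erythroid libraries, where the 14 macrophage markers were at 0, and were counted in the endothelial libraries, where those markers summed to 1569 to 4011 CPM. Rab3b, Rab4a, Rab34 and Rab39 were likewise at 0 in every erythroid library and counted in every endothelial one. The sum of 4011 CPM was in endothelial replicate 2. Of the endothelial libraries, Rab7b, Rab31 and Rab32 were highest there and Rab27a was lowest, at 5.21 CPM. The 10 megakaryocyte and platelet markers summed to 10.3 and 77.1 CPM in double positive libraries, 38.4 to 53.5 CPM in erythroid libraries and 643 to 999 CPM in endothelial libraries. The part of macrophage and megakaryocyte transcripts in these results was not tested.

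Of the cilium members, Rab28 had 16.04 and 15.5 CPM in double positive libraries, 50.5, 52.9 and 25.1 CPM in erythroid libraries and 31.4, 26.7 and 27.8 CPM in endothelial libraries. Double positive libraries were lowest, with a log2 difference of -1.44 ± 0.39 from erythroid libraries (adjusted p = 0.0177). The call was lost without either double positive library and with library size alone. Rab23, a brake on Hedgehog signalling, and Rab40c, which joins a ubiquitin ligase, passed in no comparison. The 13 members that were not tested were all scarce. Of them Rab3c, Rab9b, Rab15, Rab26, Rab40b and Rab44 were at 0 in every library. A count of 0 over a group allows up to 0.296 CPM in double positive, 0.285 CPM in erythroid and 0.151 CPM in endothelial libraries, taking 3 counts as the limit. The other 7 (Rab19, Rab25, Rab33a, Rab37, Rab38, Rab39b and Rab42) had at most 26 counts in any library. Intervals and limits cover counting error only, since the reads carry no molecular identifiers.

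Of the tested members, 6 were above both other populations in double positive libraries (13.0%, against 9.33% of all genes) and 2 were below both (4.35%, against 1.6%). The 6 are Rab4a, Rab6b, Rab9, Rab17, Rab20 and Rab30, and the 2 are Rab8b and Rab29. They come from the Golgi (Rab6b and Rab30), the early endosome (Rab20), the recycling endosome (Rab4a and Rab17), the late endosome (Rab9 and Rab29) and delivery to the surface (Rab8b). Without double positive replicate 7 the higher set was Rab4a and Rab9 and the lower set held 0. Without replicate 8 the higher set was Rab4a and the lower set Rab8b. In both cases the 1 library left was assumed to vary like the other groups. Of the 15 visceral endoderm markers, which together summed to 101500 and 98970 CPM in double positive libraries and to at most 221 CPM elsewhere, 14 lay above all other libraries in both double positive ones. The exception was Sox17, which endothelium also makes, at 9.55 and 7.73 CPM in double positive libraries, 0 in all 3 erythroid libraries and 55.7, 61.8 and 110.8 CPM in endothelial libraries. Afp, the most abundant of the 15, had 53150 and 55390 CPM in double positive libraries, 12.1, 12.7 and 7.17 CPM in erythroid libraries and 10.7, 16.4 and 21.0 CPM in endothelial libraries. Of 9 mesenchyme and mesothelium markers, 6 likewise lay above all other libraries in both double positive ones, and Msln was at 0 in every library. The 9 summed to 223 and 178 CPM in double positive libraries, 0 to 0.466 CPM in erythroid libraries and 4.39 to 10.5 CPM in endothelial libraries. The part of both lists in these results was not tested.

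**Figure D2:**
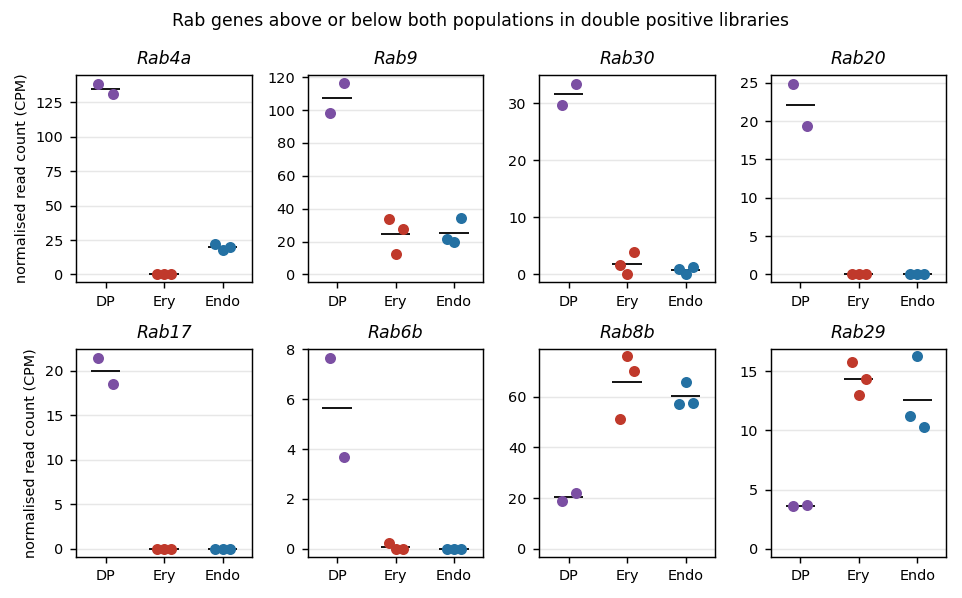
Normalised read counts (CPM, vertical axis, 1 scale per panel) of the 8 Rab genes above or below both other populations in double positive libraries, with 1 point per library and a line at each mean. DP stands for double positive, Ery for erythroid and Endo for endothelial, and the 2 DP points lie outside all other points in each panel.

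Near copies of a Rab formed 16 families in the table. To compare levels between genes, CPM were divided by the union exon length in kilobases, and each copy was given as a percentage of its family. In 6 families (Rab1, Rab2, Rab4, Rab5, Rab11, and Rab22a with Rab31) at least 1 copy's share separated all 3 populations without overlap. In 4 (Rab3, Rab6, Rab7 and Rab8) some populations were separate, in 3 (Rab9, Rab33 and Rab40) none were, and 3 (Rab27, Rab32 with Rab38, and Rab39) had no counts in erythroid libraries. Such separation was not counted in families of other genes, so these counts have no background rate and do not set Rab families apart. A family was counted on any of its copies, and shares of the same total are not independent of each other. Rab1a made up 80.1 and 76.7% of Rab1a plus Rab1b in double positive libraries, 46.02, 43.7 and 47.5% in erythroid libraries and 64.96, 62.2 and 68.4% in endothelial libraries. Rab1b was thus the larger part in erythroid libraries alone. Rab2a made up 96.03 and 95.9% of Rab2a plus Rab2b in double positive libraries, 75.6, 53.5 and 57.2% in erythroid libraries and 88.3, 80.02 and 82.7% in endothelial libraries. Rab4a made up 89.2 and 89.2% of Rab4a plus Rab4b in double positive libraries, 0 in all 3 erythroid libraries and 49.1, 37.7 and 57.9% in endothelial libraries. In the erythroid libraries every Rab4 count was a Rab4b count, 142 in all.

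Rab11a made up 93.7 and 93.2% of the Rab11 family (with Rab11b and Rab25) in double positive libraries, 66.9, 64.6 and 58.9% in erythroid libraries and 92.6, 90.9 and 90.4% in endothelial libraries. Rab31 made up 84.6 and 83.3% of Rab31 plus Rab22a in double positive libraries, 0 in all 3 erythroid libraries, on 44 family counts, and 91.4, 97.3 and 94.1% in endothelial libraries. For Rab8a the double positive libraries stood apart, with 83.1 and 79.3% of Rab8a plus Rab8b in double positive libraries, 60.6, 61.1 and 60.97% in erythroid libraries and 60.1, 52.9 and 64.1% in endothelial libraries. Rab5b made up 13.9% to 14.2% of the Rab5 family in double positive libraries, 20.9% to 25.6% in erythroid libraries and 11.1% to 13.6% in endothelial libraries. Rab5a held 29.1% to 35.8% in double positive libraries, 6.63% to 14.8% in erythroid libraries and 12.7% to 22.6% in endothelial libraries, so its erythroid and endothelial shares overlapped. Rab9 was 100% of its family in all 8 libraries, and Rab7 97.7% to 100% of Rab7 plus Rab7b. Rab6a was 91.9% to 93.3% of Rab6a plus Rab6b in double positive libraries and at least 99.8% in the other 6. An exact two-sided permutation test cannot go below p = 0.1 with 3 against 3 or 3 against 2 libraries, so no share could pass at 0.05. Reads that match both copies could be split or dropped by the counting, and the isoform used for each gene is not known. With the longest transcript as gene length, the mean share of Rab1a in erythroid libraries was 48.8% in place of 45.7%.

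**Figure D3:**
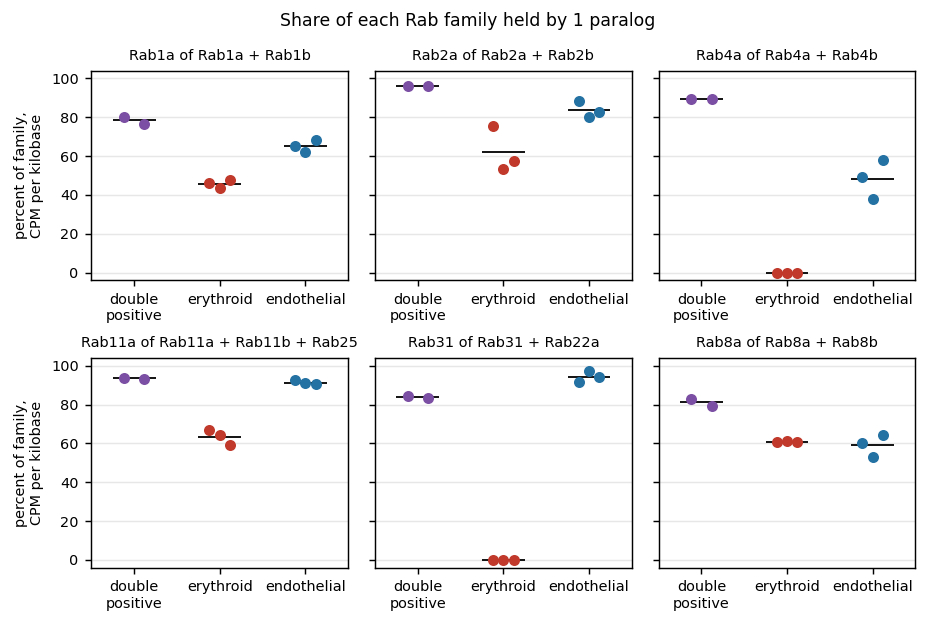
Share of a Rab family held by 1 copy (percent of the family's CPM per kilobase, vertical axis) in double positive, erythroid and endothelial libraries, with 1 point per library and a line at each mean. In the families drawn, erythroid libraries lie lowest for Rab1a, Rab2a, Rab4a, Rab11a and Rab31, and double positive libraries lie highest for Rab8a.

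By transport step, the family's make-up per kilobase separated all 3 populations without overlap at some steps. These were recycling endosome, late endosome, surface delivery, lysosome-related organelles and cilium. Such separation was not counted for sets of other genes, so it has no background rate. Shares of the same total are not independent of each other, and the last 2 of these steps hold 2 genes each. Recycling members held 38.3% to 38.8% of all Rab CPM per kilobase in double positive libraries, 16.8% to 22.2% in erythroid libraries and 26.9% to 33.3% in endothelial libraries. Members of the ER and Golgi held 28.7% to 28.8% in double positive libraries, 32.1% to 35.7% in erythroid libraries and 30.8% to 32.1% in endothelial libraries. Late endosome and lysosome members held 21.0% to 21.3% in double positive libraries, 24.8% to 27.0% in erythroid libraries and 16.4% to 18.8% in endothelial libraries. Members of surface delivery held 4.54% to 4.71% in double positive libraries, 11.9% to 14.4% in erythroid libraries and 8.24% to 8.91% in endothelial libraries. Early endosome members held 5.26% to 7.69% across all 8 libraries, with all 3 populations overlapping. Lysosome-related organelle members (Rab32 and Rab38) held 0.19% to 0.615% in double positive libraries, 0 in erythroid libraries and 3.49% to 5.68% in endothelial libraries. Cilium members (Rab23 and Rab28) held 0.435% to 0.4825% in double positive libraries. Their share was 1.435% to 3.45% in erythroid libraries and 0.856% to 1.077% in endothelial libraries. Members of the ubiquitin ligase type (Rab40b and Rab40c) held 0.205% to 0.323% in double positive libraries. They held 0 to 0.218% in erythroid and 0.0139% to 0.415% in endothelial libraries, with all 3 populations overlapping. A higher share was not always a higher level. Late endosome members summed to a mean of 183 CPM per kilobase in double positive libraries, 98.7 in erythroid libraries and 131 in endothelial libraries. Surface delivery members summed to 40.1 CPM per kilobase in double positive libraries, 48.5 in erythroid libraries and 63.1 in endothelial libraries. The shares and sums were described and not tested.

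**Figure D4:**
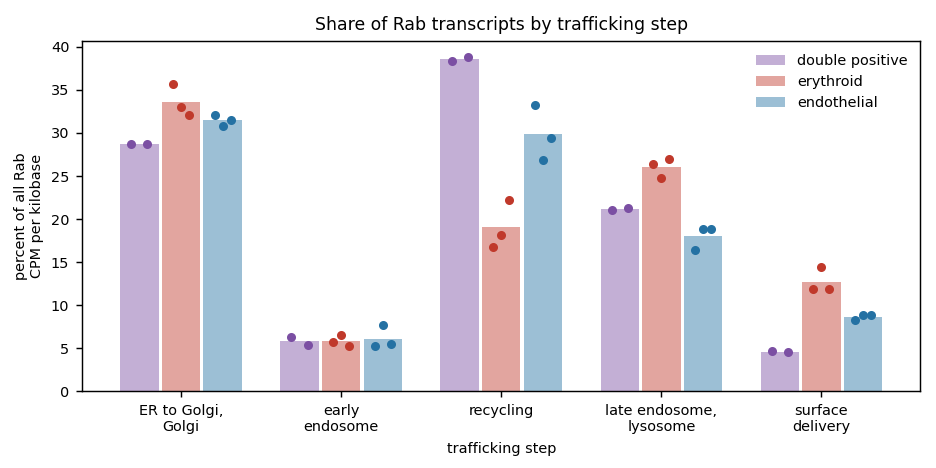
Share of all Rab transcripts by transport step (percent of the summed CPM per kilobase of 59 Rab genes, vertical axis), with bars at the mean of each population and 1 point per library. The recycling step is highest in double positive and lowest in erythroid libraries, and surface delivery is lowest in double positive libraries.

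Single genes showed what lay behind these shares. In double positive libraries Rab11a led with 204 ± 8.19 CPM per kilobase (SD, n = 2), followed by Rab1a with 117 ± 9.28, Rab7 with 101 ± 11.49, Rab4a with 76.8 ± 2.79 and Rab9 with 61.3 ± 7.47. In erythroid libraries Rab7 led with 62.8 ± 11.6 CPM per kilobase (SD, n = 3), followed by Rab1b with 40.9 ± 7.15, Rab11a with 36.6 ± 6.03 and Rab1a with 34.3 ± 3.35. The ranges of the last 3 over the erythroid libraries overlapped, while Rab1b was above Rab1a in each of those libraries. In endothelial libraries Rab11a led with 154 ± 27.6 CPM per kilobase (SD, n = 3), followed by Rab7 with 96.4 ± 2.62 and Rab1a with 91.8 ± 2.45, and then Rab1b with 49.2 ± 5.84.

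The genes that load, switch and read Rab proteins were also counted. Of 143 listed, 142 were in the table and 132 were tested. Erythroid libraries were higher than endothelial ones for 14 (10.6%) and lower for 32 (24.2%), at a median log2 difference of -0.55. Double positive libraries were higher than endothelial ones for 13 (9.85%) and lower for 3 (2.27%), at a median of -0.22. They were higher than erythroid ones for 38 (28.8%) and lower for 9 (6.82%), at a median of 0.70. The shares for all genes tested, in the same order, are the 14.4% and 26.6%, 14.6% and 6.92%, and 31.5% and 10.6% given above. Unlike the members, single genes of these lists were not followed through the alternatives. Whether a call named below stands without 1 library was therefore not tested.

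Among the 9 genes of prenylation and membrane extraction, erythroid libraries were higher than endothelial ones for 1 (11.1%, against 14.4% of all genes) and lower for 3 (33.3%, against 26.6%). Rabggtb, the beta subunit of the Rab prenyltransferase, had 83.04 and 113 CPM in double positive libraries, 120.3, 133 and 173 CPM in erythroid libraries and 53.9, 52.9 and 68.7 CPM in endothelial libraries (erythroid against endothelial log2 1.28 ± 0.22, adjusted p = 0.00158). Gdi2, a GDP dissociation inhibitor, had 349 and 308 CPM in double positive libraries, 171, 228 and 180.4 CPM in erythroid libraries and 402, 469 and 373 CPM in endothelial libraries. It was lower in the erythroid than in the endothelial libraries (log2 -1.11 ± 0.16, adjusted p = 0.0006178). Chml, an escort protein for new Rab proteins, had 30.2 and 25.2 CPM in double positive libraries, 0 in all 3 erythroid libraries and 3.43, 3.91 and 2.26 CPM in endothelial libraries. It was above both, by log2 3.10 ± 0.66 against endothelial libraries (adjusted p = 0.0181).

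Of the 37 exchange factors, erythroid libraries were higher than endothelial ones for 5 (13.5%, against 14.4% of all genes) and lower for 8 (21.6%, against 26.6%). Rabgef1, which activates Rab5, had 13.4 and 14.5 CPM in double positive libraries, 43.3, 52.9 and 35.2 CPM in erythroid libraries and 5.81, 8.95 and 8.23 CPM in endothelial libraries. Erythroid libraries stood apart as the highest (log2 2.51 ± 0.35 against endothelial, adjusted p = 0.0005368). Rab3il1, an exchange factor for Rab8 and Rab3, had 38.95 and 49.9 CPM in double positive libraries, 273, 284 and 297 CPM in erythroid libraries and 84.9, 201 and 127 CPM in endothelial libraries. The double positive libraries were below both, by log2 -1.63 ± 0.33 against endothelial (adjusted p = 0.00997) and -2.68 ± 0.35 against erythroid libraries (adjusted p = 0.0004603). Its relative Rab3ip had 37.4 and 31.3 CPM in double positive libraries, 4.19, 23.1 and 10.1 CPM in erythroid libraries and 0, 0.814 and 1.45 CPM in endothelial libraries, and was higher in the double positive than in the endothelial libraries (log2 5.50 ± 1.11, adjusted p = 0.00939).

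Of the 35 GTPase activating proteins tested, erythroid libraries were higher than endothelial ones for 3 (8.57%, against 14.4% of all genes) and lower for 6 (17.1%, against 26.6%). Evi5, which acts on Rab11, had 96.4 and 77.1 CPM in double positive libraries, 80.3, 54.5 and 74.6 CPM in erythroid libraries and 24.02, 13.5 and 26.3 CPM in endothelial libraries. Endothelial libraries were the lowest (erythroid against endothelial log2 1.71 ± 0.30, adjusted p = 0.00189). Tbc1d4, which acts on Rab10, had 2.29 and 1.43 CPM in double positive libraries, 0 in all 3 erythroid libraries and 32.5, 36.9 and 21.8 CPM in endothelial libraries. It was at least 107-fold lower in erythroid (adjusted p = 0.0002396) and lower by log2 -4.01 ± 0.70 in double positive libraries (adjusted p = 0.00860) than in endothelial libraries.

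Of the 51 effectors tested, erythroid libraries were higher than endothelial ones for 5 (9.8%, against 14.4% of all genes) and lower for 15 (29.4%, against 26.6%). Those higher in double positive than in endothelial libraries numbered 8 (15.7%, against 14.6% of all genes), and 1 was lower (1.96%, against 6.92%). Myo5b, the motor that binds Rab11 and moves recycling endosomes in epithelia, had 25.2 and 17.3 CPM in double positive libraries and was at 0 in all erythroid and endothelial libraries. Myo5b was at least 142-fold higher than in endothelial libraries (adjusted p = 0.00894). Exoc6, an exocyst subunit that binds Rab11 and is mutated in a mouse strain with haemoglobin deficit, had 76.6 and 62.3 CPM in double positive libraries, 83.1, 67.8 and 81.1 CPM in erythroid libraries and 40.8, 40.7 and 27.3 CPM in endothelial libraries. Erythroid libraries were higher than endothelial ones, by log2 1.09 ± 0.23 (adjusted p = 0.00514). Gorasp2, a Golgi stacking protein that binds Rab2, had 131 and 131 CPM in double positive libraries, 32.8, 25.03 and 27.03 CPM in erythroid libraries and 125, 117 and 130.1 CPM in endothelial libraries. It was lowest in erythroid libraries (log2 -2.13 ± 0.18 against endothelial, adjusted p = 3.065e-05). Ehbp1l1, which links Rab8 to membrane tubules, had 5.15 and 4.48 CPM in double positive libraries, 47.3, 58.6 and 29.96 CPM in erythroid libraries and 27.3, 34.3 and 42.3 CPM in endothelial libraries. Double positive libraries were below both (log2 -2.84 ± 0.43 against endothelial, adjusted p = 0.00223, and -3.23 ± 0.44 against erythroid libraries, adjusted p = 0.0005163).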

How the data were processed

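RNA of 8 sorted cell pools was measured as read counts per gene symbol. The deposited table holds raw counts as the authors made them, unscaled, for 24454 genes. The submitters' processing notes name FastQC, HTSeq and mm10, and neither aligner, annotation nor strand setting is given there.

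Libraries were grouped by sorting gate. Genes passing filterByExpr at a minimum count of 10 (12136 genes) were scaled with TMM factors and fitted with edgeR 4.0.16's robust quasi-likelihood test (R 4.3.3), 1 mean per population, using all 8 libraries, two-sided, at a Benjamini-Hochberg adjusted p under 0.05. The common biological coefficient of variation was 0.541. CPM use these scaled sizes and so can sum to more or less than a library's total. Means are given with SD and log2 differences with SE. Where a group was at 0, folds were taken against 3 counts over that group. Simulated data with known changes were used to test the fit. No 2 libraries were identical, and replicates differed by a chi-square of 14.0 to 28.6 per degree of freedom.

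Gene models came from GENCODE on GRCm38 and promoters from RefSeq on GRCm38.p6. Members given in full were, per comparison, the 6 largest rises and falls that passed the test, averaged 20 CPM or more where higher, and had non-overlapping groups, those outside both populations, and a fixed list of major Rab genes. Of the regulators, up to 2 per list and direction with the smallest adjusted p were eligible, and a part of them is described. Other members are named to account for the whole family. The members and lists were chosen with earlier results of these data known. Alternatives were DESeq2 1.42.0, limma-voom (limma 3.58.1), RLE factors, unadjusted library size, globin genes left out of the sizes, no filter, a minimum count of 50, a fit of 2 populations at a time, the longest transcript as gene length, and each library left out. Tables and figures used python 3.11.15, pandas 2.3.3, numpy 2.4.6 and matplotlib 3.10.9.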

Additional observations from a re-analysis of the deposited data

How the results depend on the processing

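No paired analysis was possible because the replicate numbers run from 1 to 8 with none shared between populations. All 14 members lower in the erythroid than in the endothelial libraries were called under every alternative in which they were tested, and Rab7b was not tested at a minimum count of 50. DESeq2 called 18 members lower there (31.9% of all genes), adding Rab2b, Rab4b, Rab27b and Rab33b. With limma-voom there were 15 (28.5%), adding Rab39. The 5 members lower in the double positive than in the endothelial libraries became 9 with DESeq2, 10 with library size alone (15.7% of all genes) and 3 with no filter (5%). With library size alone, 36 members were lower in the erythroid than in the endothelial libraries (59.9% of all genes) and 1 was lower in the double positive than in the erythroid libraries (3.91%). The 2 members below both populations became 1 with library size alone and 1 with no filter. Fits without a double positive library, which left 1 library in that group, are described above. Leaving out 1 endothelial or erythroid library gave 0 to 1 members higher for erythroid against endothelial libraries (12.7% to 13.6% of all genes). It gave 14 to 16 lower (24.8% to 26.2%). For double positive against endothelial libraries it gave 5 to 6 higher (11.4% to 15.4%) and 2 to 6 lower (4.23% to 8.61%). For double positive against erythroid libraries it gave 16 to 18 higher (29.4% to 32.4%) and 3 to 4 lower (8.85% to 11.4%). Such fits left 5 to 6 members above both populations and 1 to 2 below both. With all 8 libraries, 9.33% of all genes were above both and 1.6% below both. With library size alone, whose shift of all genes was -1.54, -0.63 and 0.90 in these comparisons, 32 of the 138 log2 differences of members changed sign. None of the 32 had passed, and 12 of them now did. Against endothelial libraries, erythroid log2 differences became -1.52 for Rab6a, -1.32 for Rab8a, -1.42 for Rab8b, -1.29 for Rab10, -0.97 for Rab11b, -1.12 for Rab18, -1.24 for Rab24, -0.97 for Rab28 and -1.35 for Rab29. Against erythroid libraries, double positive ones became 0.56 for Rab1b, 0.69 for Rab8a and 0.63 for Rab18. Globin removal changed no call of a member. The cause of these changes was not tested beyond the scaling itself. The number of libraries, 2 or 3 a population, and counts of 0 in erythroid libraries limit what can be resolved.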
